A study of Mus musculus with 20 samples.

Results

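The nuclear genes of mitochondrial complex I and of its assembly were followed in the hearts of mice with and without an induced loss of ACC2, each on a high-fat diet and on chow. The members were all genes whose symbol starts with Nduf, pseudogene symbols apart, with at least 0.5 FPKM in at least 5 of the 20 libraries. They were 45 of the 25052 genes listed, of which 12775 passed the same filter and were tested, and each of the 45 reached 0.5 FPKM in all 20 libraries. By role they were 36 structural subunits, 7 assembly factors (Ndufaf1 to Ndufaf7) and 2 further genes that carry the symbol for historical reasons. FPKM, fragments counted relative to transcript length and library size, can be compared between genes because it is a level per length.

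Poly(A) RNA was sequenced from left ventricles of 20 male mice, 5 in each of 4 groups. All mice were homozygous for a floxed allele of Acacb, the gene of ACC2, the acetyl-CoA carboxylase whose product malonyl-CoA limits fatty acid entry into mitochondria. The iKO mice also carried MerCreMer, a Cre recombinase that tamoxifen activates and whose promoter the labels do not name, whereas their littermates, called WT in the labels, lacked the Cre, and both genotypes were injected with tamoxifen at 8 weeks (20 mg/kg on each of 5 days). The diets, chow or HFD (Research Diets D12492), began 4 weeks after tamoxifen and lasted 16 weeks. The groups were therefore iKO on HFD (RT11, RT13, RT15, RT17 and RT20), WT on HFD (RT12, RT14, RT16, RT18 and RT19), iKO on chow (RT2, RT4, RT6, RT7 and RT9) and WT on chow (RT1, RT3, RT5, RT8 and RT10). No mice with the Cre and without floxed alleles were among the samples, so that loss of ACC2 and presence of the Cre cannot be told apart. Library numbers up to RT10 are chow and those from RT11 are HFD; no batch is labelled, and the diet and the run of numbers cannot be told apart either.

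Complex I takes electrons from NADH and passes them through a flavin and a chain of iron-sulfur clusters to ubiquinone, and pumps protons across the inner mitochondrial membrane as it does so. Its matrix arm holds the electron path and is built around nuclear-encoded core subunits, while the proton-pumping membrane arm has its core subunits encoded in mitochondrial DNA (the mt-Nd genes). Accessory subunits, all nuclear, surround both arms, and assembly factors help to build the complex without being part of it. In heart, where fatty acids are the main fuel, complex I is a main entry point of electrons into the respiratory chain.

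Acacb lay between 8.37 and 11.9 FPKM in the 10 iKO libraries and between 34.9 and 41.9 FPKM in the 10 WT libraries. All 7 cardiomyocyte markers (Myh6, Actc1, Tnnt2, Tnni3, Myl2, Ryr2 and Pln) were present in every group, with summed levels of 22284 to 32076 FPKM per library. Assigned reads, estimated from the steps between low FPKM values, numbered 12.5 to 31.9 M per library, with a median of 22.5 M. The labels state a depth of 50 M with reads of 100 nt for every library, and why the indirect estimate is lower was not tested. Library RT19, WT on HFD, stood apart: in it the subunits were high as a group, and counts and medians of the members are given also without it. It departed in other genes too. Ryr2 stood at 60.2 FPKM there, its lowest value, against a median of 100.2 FPKM in WT on HFD. Ndufs1, at 303 FPKM, was lowest of its group in RT19. The regulators Gabpa, Yy1, Nrf1 and Esrrg had their lowest values of all libraries there, while Esrra did not.

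In WT hearts on chow the transcripts of nearly all subunits stood above 100 FPKM. The 36 subunits ranged from 645 FPKM (Ndufb9) to 52.9 FPKM (Ndufa11), a ratio of 12.2, with a median of 279 FPKM, and 30 of the 36 lay between 100 and 400 FPKM. Assembly factors were far lower, from 31.4 FPKM for Ndufaf1 to 10.5 FPKM for Ndufaf7, with a median of 13.6 FPKM, and no assembly factor reached the lowest subunit. The spread between mice was small: over the 36 subunits and 4 groups the coefficient of variation within a group had a median of 5.25% and ran from 0.97% to 12.6%.

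**Figure D1:**
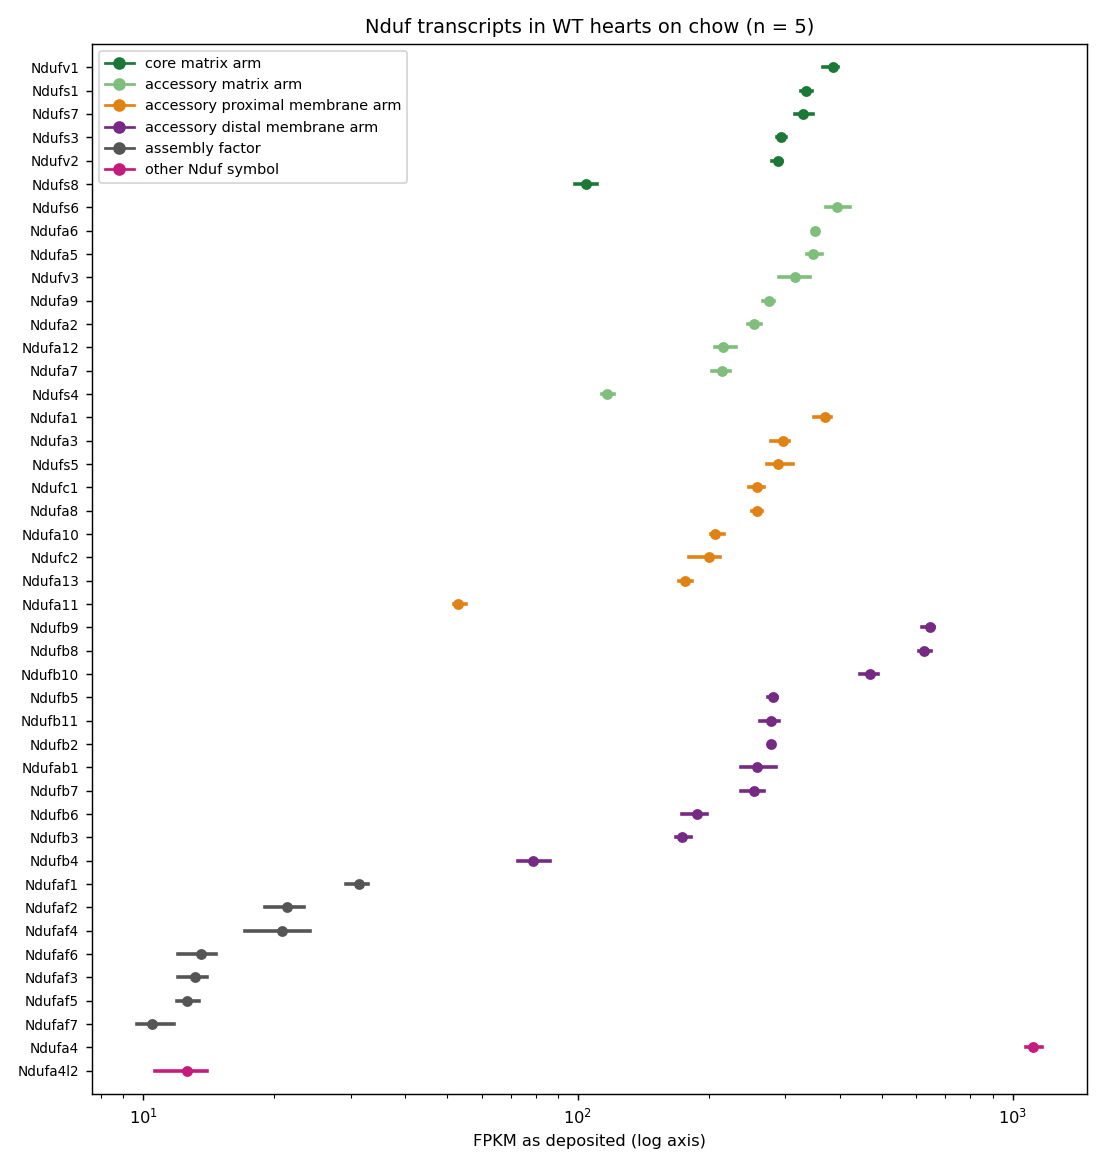
Level of 44 of the 45 Nduf transcripts in WT hearts on chow, in FPKM on a log axis, by role; points are means and lines run from the lowest to the highest of 5 libraries. Subunits lie between 52.9 and 645 FPKM, and the assembly factors at the bottom between 10.5 and 31.4 FPKM.

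The classes overlapped in their levels. In the core of the matrix arm the lowest was Ndufs8, a carrier of iron-sulfur clusters, at 104 ± 5.46 FPKM (SD, n = 5). Among accessory subunits of the matrix arm Ndufs6, which binds zinc, stood at 395 ± 19.5 FPKM, and Ndufs4, whose loss causes Leigh syndrome in people and a like disease in mice, at 117 ± 2.91 FPKM. The proximal membrane arm ran from Ndufa1 at 370.1 ± 14.8 FPKM to Ndufa11 at 52.9 ± 1.46 FPKM. The distal membrane arm ran from Ndufb9 at 645 ± 17.6 FPKM to Ndufb4 at 78.9 ± 4.93 FPKM. Of the genes that are members by symbol alone, Ndufa4, now held to be a subunit of cytochrome c oxidase, was the most abundant of all at 1117 ± 35.5 FPKM. Its paralog Ndufa4l2, known as a hypoxia-induced gene, stood at 12.6 ± 1.23 FPKM.

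HFD was set against chow within each genotype, to ask whether the diet moved the transcripts of the complex. In iKO hearts 12 of the 45 members fell by 9.43% to 15.7% on HFD and none was higher (limma on log2(FPKM + 1), Benjamini-Hochberg adjusted p below 0.05 over all 12775 genes). The background for lower calls in that comparison was 8.36% of all genes tested. In WT hearts 2 members were lower and none was higher, against a background for lower calls of 7.27%. These counts depended on single libraries. Without RT19 they were 18 in iKO (background for lower calls 9.68%) and 9 in WT (6.46%). The iKO count was 6 without RT7 or without RT15 and 7 without RT17, and the WT count lay between 0 and 9 over the 20 fits with 1 library left out. Apart from the fit without RT19, the share of all genes called in these fits is not given. Those counts therefore cannot be told from a change in calls over all genes. The 12 comprised 2 of the 7 core subunits, 5 of the 9 accessory subunits of the matrix arm, none of the 9 of the proximal membrane arm, 4 of the 11 of the distal membrane arm, none of the 7 assembly factors and Ndufa4. The median log2 fold change of the members was -0.11 in iKO, where that of all genes tested was -0.072, and -0.083 in WT, where that of all genes tested was -0.084. Whether the diet effect differed between genotypes was tested as an interaction, and limma called none of the 45 members there (background 0.0313%). Of the members 2 had an unadjusted p below 0.05, against 3.76% of all genes tested. The median of the interaction over the members was -0.037, and without RT19 it was 0.0064, with no member at an unadjusted p below 0.05.

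**Figure D2:**
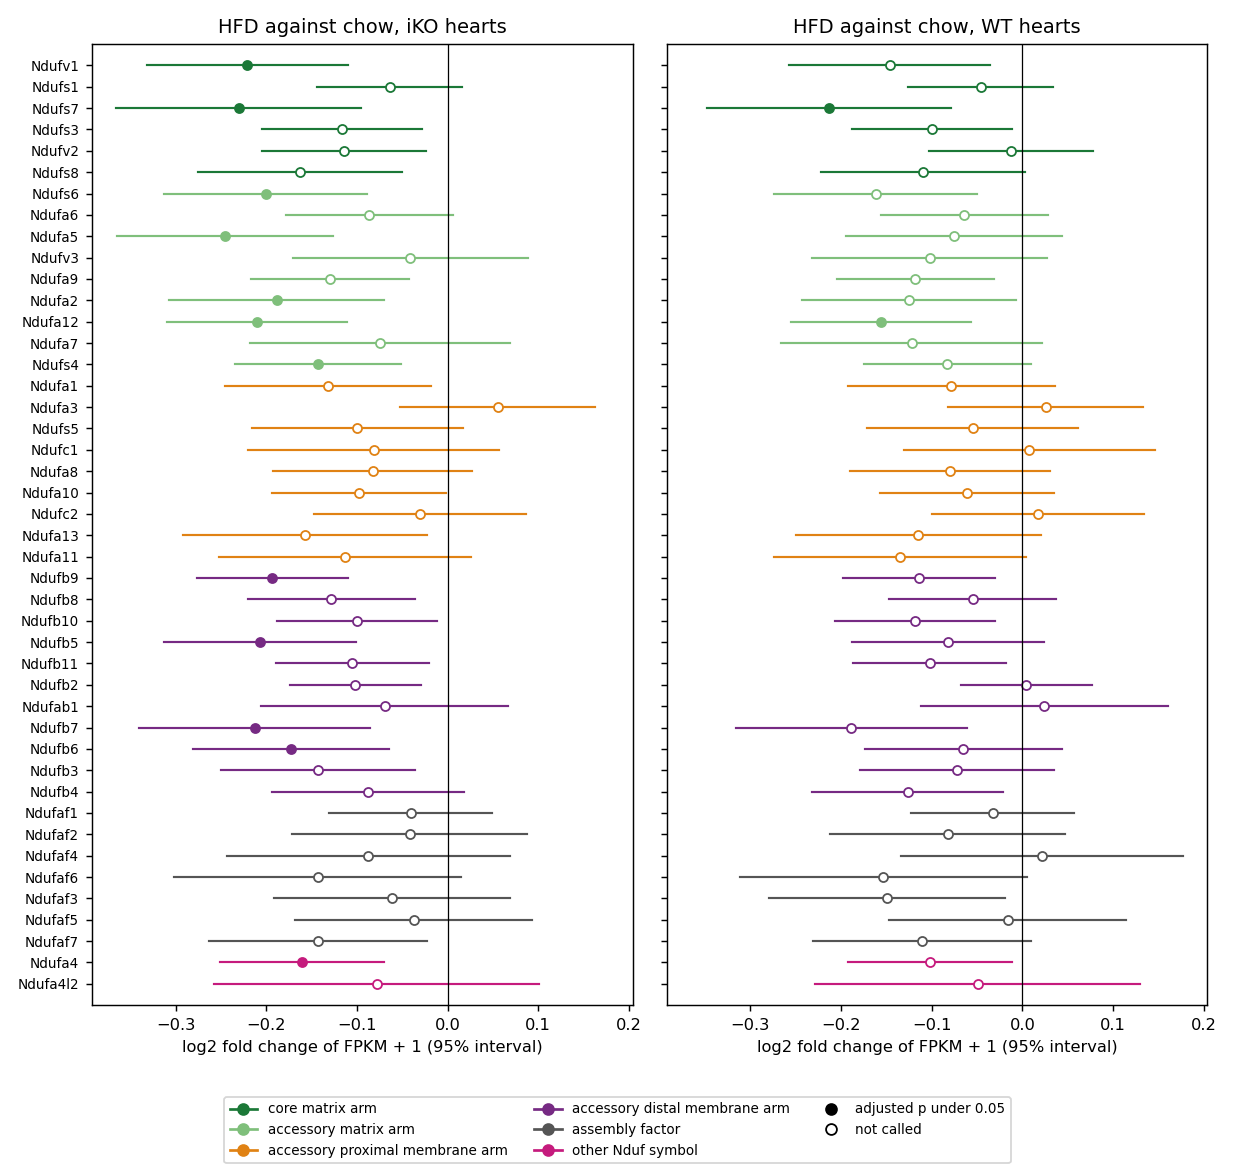
Log2 fold change of FPKM + 1 on HFD against chow for 44 of the 45 members, in iKO hearts on the left and WT hearts on the right, with 95% intervals from limma over 20 libraries; filled points have an adjusted p below 0.05. In iKO 43 of 44 points lie below 0 and 12 are filled, and in WT 38 of 44 lie below 0 and 2 are filled.

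Among the core subunits, Ndufv1 and Ndufs7 were lower on HFD in iKO. Ndufv1 (ENSMUSG00000037916.13, chr19:4007384-4012806 on GRCm38), which binds NADH and the flavin, stood at 345, 315, 337, 315 and 356 FPKM in iKO on HFD and at 403, 383, 359, 439 and 365 FPKM in iKO on chow (values are given in the order of library numbers throughout). All coordinates are on GRCm38, from GENCODE M21 for genes and RefSeq for promoters, whereas the submitters' processing notes name mm9. In WT it stood at 351, 315, 357, 360.1 and 363 FPKM on HFD and at 366, 396, 396, 394 and 379.8 FPKM on chow. The highest HFD value lay below the lowest chow value in both genotypes. Ndufv1 fell by 0.22 on the log2 scale in iKO (SE 0.053, limma adjusted p = 0.0109) and did not pass in WT (-0.15, SE 0.053, adjusted p = 0.0876).

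Ndufs7 (ENSMUSG00000020153.14, chr10:80249121-80256794) holds the last iron-sulfur cluster before ubiquinone. It stood at 297, 250.3, 273, 267 and 304 FPKM in iKO on HFD and at 325, 332, 299, 381 and 298 FPKM in iKO on chow, where the ranges overlapped. In WT it stood at 281, 259, 278, 286 and 318 FPKM on HFD and at 321, 348, 324, 316 and 337 FPKM on chow, where RT19 alone reached into the chow range. By limma it fell in iKO by 0.23 (SE 0.065, adjusted p = 0.0271) and in WT by 0.21 (SE 0.065, adjusted p = 0.0448) on the log2 scale. Each of these calls depended on single libraries: it held in 15 of the 20 fits that left out 1 library in iKO, being lost without RT4, RT7, RT13, RT15 or RT17, and in 9 of 20 in WT. Ndufs1, the subunit with the most iron-sulfur clusters, had a log2 fold change of -0.064 in iKO (95% interval -0.14 to 0.016) and -0.046 in WT, and neither passed.

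The accessory matrix arm held the most calls in iKO: Ndufa12, Ndufa5, Ndufs6, Ndufa2 and Ndufs4. Ndufa12 (ENSMUSG00000020022.16, chr10:94198720-94221443), which takes its place late in assembly where the factor Ndufaf2 had been, stood at 188, 180.4, 178, 164 and 197 FPKM in iKO on HFD and 203, 218, 227, 198 and 205 FPKM in iKO on chow. In WT it stood at 189.9, 188, 191, 199 and 201 FPKM on HFD and 211, 231, 214, 218 and 207 FPKM on chow. HFD and chow did not overlap in either genotype, and in iKO the highest HFD value, of RT20, lay just below the lowest chow value, of RT7. It fell by 0.21 in iKO (SE 0.048, limma adjusted p = 0.00740) and by 0.16 in WT (SE 0.048, limma adjusted p = 0.0473) on the log2 scale, and the WT call held in 6 of 20 left-out fits.

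Ndufa5 (ENSMUSG00000023089.12, chr6:24518666-24528013), a small subunit close to the core of the matrix arm, had the largest fall of all members in iKO. It stood at 308, 286, 286, 307 and 317 FPKM in iKO on HFD and 371, 336, 362, 369 and 344 FPKM in iKO on chow, with no overlap. In WT it stood at 309.8, 297, 319, 338 and 394 FPKM on HFD and 344, 356, 339.6, 336 and 363 FPKM on chow, where RT19 was the highest of all 10. The log2 fold change was -0.25 in iKO (SE 0.057, limma adjusted p = 0.00849) and -0.076 in WT (SE 0.057, limma adjusted p = 0.416), and the difference between these effects, -0.17 (SE 0.081), did not pass (limma adjusted p = 0.999).

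Ndufs6 (ENSMUSG00000021606.7, chr13:73319838-73328542) stood at 338, 357, 314, 335 and 361 FPKM in iKO on HFD and 402, 375, 381, 409 and 393 FPKM in iKO on chow, with no overlap, and fell by 0.20 on the log2 scale (SE 0.054, limma adjusted p = 0.0207). This call was lost without RT7 or without RT15. Ndufs4 (ENSMUSG00000021764.6, chr13:114287795-114388258) stood at 106, 108, 100.3, 98.9 and 107 FPKM in iKO on HFD and 114, 109, 121, 117 and 115 FPKM in iKO on chow, and its highest HFD value lay just below its lowest chow value. It fell by 0.14 (SE 0.044, limma adjusted p = 0.0426), the weakest of the 12 calls, which held in 9 of 20 left-out fits. Ndufa2, an accessory subunit with a thioredoxin-like fold, averaged 216 ± 9.13 FPKM in iKO on HFD and 247 ± 20.8 FPKM in iKO on chow (SD, n = 5), and its call held in 13 of 20 fits.

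In the distal membrane arm, the end of the proton-pumping arm, Ndufb9, Ndufb5 and Ndufb7 were lower in iKO on HFD. Ndufb9 (ENSMUSG00000022354.3, chr15:58933756-58939488), a subunit of the LYR protein family and the most abundant of the 36, stood at 592, 525, 553, 559 and 579.5 FPKM in iKO on HFD and 628, 650.1, 629, 669.9 and 631 FPKM in iKO on chow. No HFD library reached a chow library, and the smallest p of all 45 members was here (log2 fold change -0.19, SE 0.040, limma adjusted p = 0.00387). In WT it stood at 601, 554, 586, 603 and 639 FPKM on HFD and 657, 653, 618, 638 and 661 FPKM on chow, overlapping through RT19 (-0.11, SE 0.040, limma adjusted p = 0.0792).

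Ndufb5 (ENSMUSG00000027673.12, chr3:32736990-32751566), a membrane-spanning accessory subunit, stood at 237, 219, 243, 237 and 257 FPKM in iKO on HFD and 276, 285, 276, 282 and 258 FPKM in iKO on chow, again without overlap, and fell by 0.21 on the log2 scale (SE 0.051, limma adjusted p = 0.0126). In WT its HFD values of 251, 246, 255, 281 and 301 FPKM overlapped its chow values of 287, 273, 277, 283 and 287 FPKM. Ndufb7, on the intermembrane face, averaged 211 ± 12.9 FPKM in iKO on HFD and 246 ± 20.6 FPKM in iKO on chow (SD, n = 5), and its call (limma adjusted p = 0.0305) held in 14 of 20 fits. Ndufb6, named here as the remaining one of the 12 after its values were seen, had a limma adjusted p of 0.0383 and held in 12 of 20. The calls for Ndufb9, Ndufa12, Ndufa5, Ndufv1 and Ndufb5 in iKO held in all 20 fits.

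**Figure D3:**
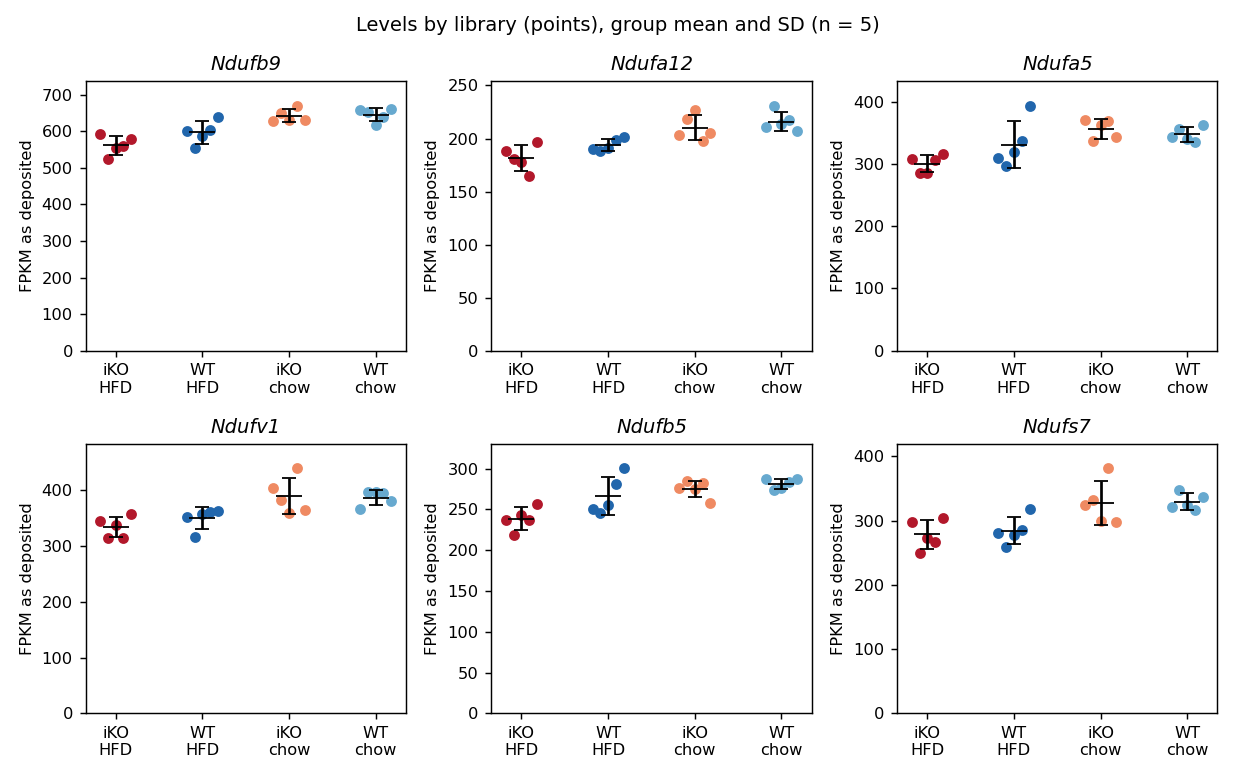
FPKM as deposited in every library for the 5 members whose iKO call held in all 20 fits with 1 library left out, and for Ndufs7; points are mice, bars are the mean and SD of 5. For Ndufb9, Ndufa12, Ndufa5, Ndufv1 and Ndufb5 all 5 iKO HFD points lie below all 5 iKO chow points.

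The groups did not overlap, HFD below chow, for 10 of the 45 members in iKO (background 6.41%) and for 2 in WT, Ndufa12 and Ndufv1 (background 9.99%). After median-of-ratios scaling, which sets the middle gene of each library equal, no member had HFD below chow without overlap in iKO (background 1.89%) or in WT (background 2.42%), and Ndufb2 had HFD above chow in WT (background for higher 2.61%). The 10 in iKO included 2 without a call, Ndufa9 and Ndufb3, named after their values were seen. No accessory subunit of the proximal membrane arm passed in either genotype, and Ndufa3, an accessory subunit there, was the only member above 0 in iKO (0.055, 95% interval -0.052 to 0.16). Of the members by symbol alone, Ndufa4 stood at 1028, 986, 928, 957 and 1057 FPKM in iKO on HFD and 1099, 1073, 1116, 1121 and 1125 FPKM in iKO on chow, without overlap. It fell by 0.16 (SE 0.044, limma adjusted p = 0.0221), a call lost without RT15. Ndufa4l2 averaged 12.6 ± 0.685 FPKM in iKO on HFD and 13.4 ± 1.87 FPKM in iKO on chow and did not pass.

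Of the 7 assembly factors with an Nduf symbol limma called none in any of the 5 comparisons with all 20 libraries. The share of all genes called was 10% for the diet in iKO, 8.04% for the diet in WT and at most 1.06% otherwise. At such shares a count of 0 among 7 does not set them apart from other genes. Without RT19 limma called Ndufaf3 lower for the diet in WT (background for lower calls 6.46%). Their summed level was 116 ± 3.85 FPKM in iKO on HFD, 118 ± 6.41 FPKM in WT on HFD, 122 ± 2.66 FPKM in iKO on chow and 124 ± 5.25 FPKM in WT on chow (SD, n = 5 each). Ndufaf1, an early factor of the membrane arm, had a log2 fold change of -0.041 in iKO (95% interval -0.13 to 0.049) and -0.033 in WT (95% interval -0.12 to 0.057). Ndufaf7, a mitochondrial methyltransferase, had -0.14 in iKO (95% interval -0.26 to -0.023) and -0.11 in WT (95% interval -0.23 to 0.0099). Of 12 assembly factors without an Nduf symbol that were in the files, 2 were lower on HFD in both genotypes and none was higher, against backgrounds for lower calls of 8.36% in iKO and 7.27% in WT. These were Foxred1, an oxidoreductase-like factor, at -0.15 in iKO (SE 0.043, limma adjusted p = 0.0347) and -0.17 in WT (SE 0.043, limma adjusted p = 0.0157), and Aifm1, which helps import subunits through its partner Chchd4, at -0.14 in iKO and -0.15 in WT (limma adjusted p = 0.0438 and 0.0322). After median-of-ratios scaling limma called none of these 12 in either genotype. An unadjusted p below 0.05 was then found for 2 in iKO and none in WT, against 16.7% and 14.9% of all genes tested.

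Of the 7 mitochondrially encoded mt-Nd genes, the core of the membrane arm, 3 were higher on HFD in iKO and 2 in WT, and none was lower (the background for higher calls was 1.65% in iKO and 0.767% in WT). The median log2 fold change over the 7 was 0.17 in iKO and 0.13 in WT, and after median-of-ratios scaling 4 of 7 were higher in iKO and 2 in WT, with medians of 0.25 and 0.24 (background for higher calls 2.54% and 1.41%). mt-Nd2, a proton-pumping core subunit, stood at 22168, 22189.8, 21472, 21949.7 and 21412 FPKM in iKO on HFD and 18975, 16792, 19236, 16598 and 19709 FPKM in iKO on chow. It was higher by 0.26 on the log2 scale in iKO (SE 0.044, limma adjusted p = 5.89e-04) and by 0.19 in WT (SE 0.044, limma adjusted p = 0.0101). mt-Nd4 was higher by 0.18 in iKO and 0.17 in WT (limma adjusted p = 0.00610 and 0.0101). mt-Nd5 was higher by 0.20 in iKO (limma adjusted p = 0.0331) and had 0.13 in WT (limma adjusted p = 0.161), and the interaction did not pass (limma adjusted p = 0.999). The mt-Nd levels are uncertain, because 7 genes on chromosome 1 share at least 97.2% of their 31-base words with mitochondrial transcripts and reads may have been split between them.

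The balance between the genomes can be read within a library, free of the scaling between libraries. The summed FPKM of the 36 nuclear subunits, as a percent of the summed FPKM of the 7 mt-Nd genes, was 7.91, 7.87, 7.62, 7.85 and 8.29% in iKO on HFD and 9.68, 10.6, 8.82, 10.8 and 8.72% in iKO on chow. In WT it was 8.74, 7.53, 8.22, 8.06 and 8.88% on HFD and 9.68, 9.95, 9.46, 9.44 and 9.72% on chow. In both genotypes every HFD library lay below every chow library, also with RT19, the highest on HFD in WT. The group values were 7.91% ± 0.24 in iKO on HFD, 8.29% ± 0.54 in WT on HFD, 9.73% ± 0.98 in iKO on chow and 9.65% ± 0.21 in WT on chow (SD, n = 5 each), and the genotypes overlapped on each diet. No such ratio was taken for other nuclear genes, so whether the separation of the diets is particular to complex I was not tested. As deposited, the middle gene of those tested also had a lower level on HFD, at -0.072 in iKO and -0.084 in WT (log2). The members had medians of -0.11 in iKO and -0.083 in WT.

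FPKM is relative to library size, and mitochondrial sequence made up most of the summed FPKM. Its share of the fragments was not measured. The share of summed FPKM from mitochondrial sequence was 58.7% to 60.4% in iKO on HFD, 59% to 62.2% in WT on HFD, 52.7% to 58.2% in iKO on chow and 56.1% to 57.5% in WT on chow. When every library was rescaled to its total without that sequence, none of the 45 members was lower on HFD in iKO (background 1.69%) or in WT (background 1.19%) by limma, where 9 and 3 had an unadjusted p below 0.05 in either direction, and 1 was higher in iKO (Ndufa3, 0.16, SE 0.045, limma adjusted p = 0.0480; background 2.71%). The members' median log2 fold change was then -0.012 in iKO and 0.013 in WT. After median-of-ratios scaling limma called none in iKO (background 4.42%) and none in WT (background 2.6%), with medians of -0.027 in iKO and 0.022 in WT. An unadjusted p below 0.05 was then found for 3 members in iKO and 1 in WT, against 16.7% and 14.9% of all genes tested. The median of all genes tested was then -0.0023 in iKO and -0.00048 in WT. None of the 12 calls in iKO and the 2 in WT passed under either scaling. The 12 members in iKO were picked by their falls in these same data, so their direction after scaling is no separate support. After median-of-ratios scaling they had log2 fold changes below 0, from -0.16 for Ndufa5 (-0.25 as deposited) to -0.056 for Ndufs4 (-0.14 as deposited). Ndufs7 then had -0.14 in iKO and -0.11 in WT, Ndufv1 had -0.13 in iKO, and Ndufa12 had -0.12 in iKO and -0.050 in WT.

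**Figure D4:**
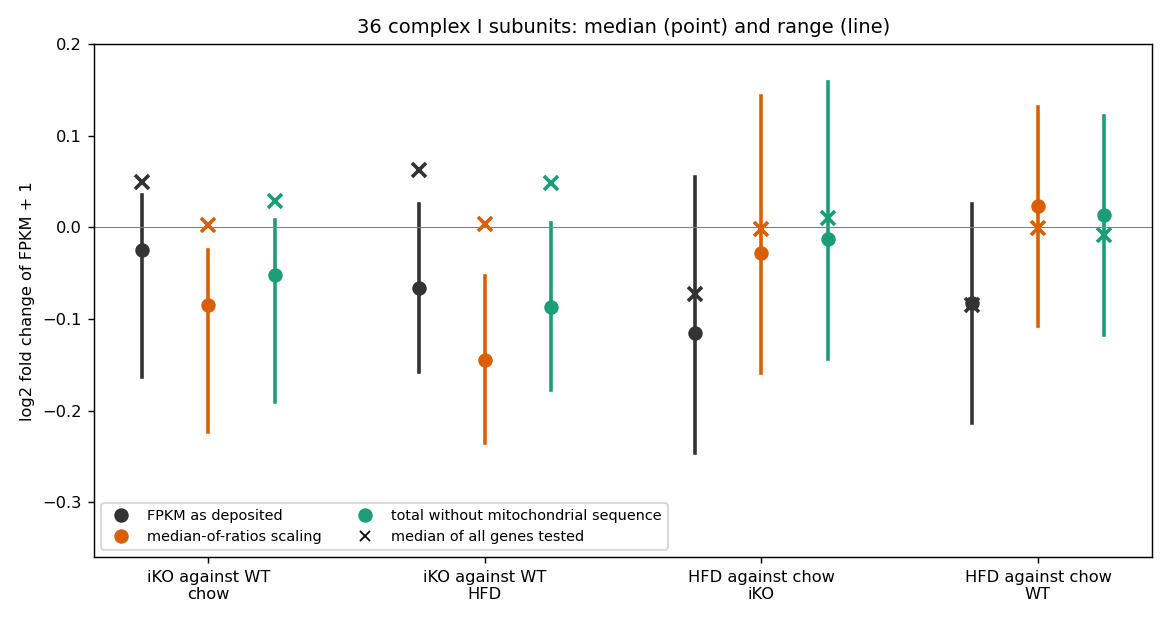
Median (point) and range (line) of the log2 fold changes of the 36 subunits in 4 comparisons under 3 scalings, with the median of all genes tested (cross). For HFD against chow the medians move from -0.12 in iKO and -0.082 in WT as deposited to -0.028 in iKO and 0.023 in WT under median-of-ratios scaling, while for iKO against WT on HFD they move from -0.067 to -0.14.

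Other measures also moved with the diet. The summed cardiomyocyte markers were 23470 to 25301 FPKM in iKO on HFD against 28018 to 32076 FPKM in iKO on chow, and 22284 to 27777 FPKM in WT on HFD against 28311 to 29339 FPKM in WT on chow. Of these 7 markers 4 were lower in iKO and 5 in WT, none was higher and none was at 0 (background for lower calls 8.36% and 7.27%). After median-of-ratios scaling limma called 1 lower in iKO (background 1.89%) and none in WT (background 1.19%). In WT 1 then had an unadjusted p below 0.05, against 14.9% of all genes tested. Atrial muscle markers, of which 2 of 4 passed the filter, summed to 41.5 to 115 FPKM in iKO on HFD against 92.7 to 321 FPKM in iKO on chow, and to 21.2 to 69.3 FPKM in WT on HFD against 57.5 to 490.0 FPKM in WT on chow. Nppa made up most of these sums. The other marker, Myl4, had medians of 1.19 FPKM in iKO on HFD and 1.4 FPKM in iKO on chow. In WT its medians were 1.14 FPKM on HFD and 0.9 FPKM on chow. These medians leave out its highest values, 138.18 FPKM in RT1 (WT on chow) and 30.96 FPKM in RT4 (iKO on chow). Every other library had at most 4.8 FPKM of Myl4. Estimated depth was 20.5 to 29.4 M in iKO on HFD against 12.5 to 24.1 M in iKO on chow, and 23.98 to 31.9 M in WT on HFD against 19.6 to 22.8 M in WT on chow. Their part in the result was not tested, and in bulk tissue fewer cells of a type and less RNA per cell cannot be told apart.

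The comparison of iKO with WT asked what loss of ACC2 did to these transcripts on each diet. Limma called none of the 45 members on chow (background 1.06%) and none on HFD (background 0.172%). An unadjusted p below 0.05 was found for 2 members on chow and 7 on HFD, against 13.5% and 15.2% of all genes tested. The median log2 fold change of the members was -0.017 on chow and -0.057 on HFD, where all genes tested had 0.050 on chow and 0.063 on HFD. Without RT19 the median on HFD was -0.024, and 4 members had an unadjusted p below 0.05, against 12% of all genes tested. Below 0 were 33 of the 45 members on chow and 39 on HFD, against 29.2% and 25.6% of all genes. On chow the smallest p was that of Ndufa3, at 261, 250.1, 270.1, 289.6 and 262 FPKM in iKO and 278, 306, 305, 294 and 299 FPKM in WT, which overlapped (-0.15, SE 0.052, limma adjusted p = 0.190). On HFD it was that of Ndufb2, an accessory subunit of the distal membrane arm, at 266, 254, 252, 251 and 263 FPKM in iKO and 289, 268, 271, 277 and 291 FPKM in WT. Each iKO value of Ndufb2 lay below each WT value, the only member of which this was so (background 0.446%), and the difference did not pass (-0.12, SE 0.035, limma adjusted p = 0.166). Ndufb2 also had the smallest p for the interaction (-0.11, SE 0.049, limma adjusted p = 0.999).

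After median-of-ratios scaling the members as a group lay lower in iKO, though limma again called none. On chow 44 of 45 were below 0 with a median of -0.077, where all genes tested had a median of 0.0021. There 4 members had an unadjusted p below 0.05, against 11.2% of all genes tested (background of calls 1.12%). On HFD 44 of 45 were below 0 with a median of -0.14, where all genes tested had a median of 0.0037. Of the members 25 had an unadjusted p below 0.05 on HFD, against 11.8% of all genes tested (background of calls 0.196%). The smallest p there was that of Ndufb5, at 249, 218, 240.1, 233 and 263 scaled FPKM in iKO and 261, 259.9, 266, 297 and 335 scaled FPKM in WT (-0.24, SE 0.061, limma adjusted p = 0.125). Without RT19 the median on HFD was -0.084 and 12 members had an unadjusted p below 0.05, against 10.8% of all genes. On chow the median was then -0.076 and 9 members had an unadjusted p below 0.05, against 12.3% of all genes.

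The iKO libraries on HFD were not alike in this. The median deviation of the 36 subunits from their means after this scaling was 0.025, -0.13, -0.15, -0.15 and 0.0048 in iKO on HFD (RT11, RT13, RT15, RT17 and RT20) and 0.030, -0.052, 0.034, 0.044 and 0.28 in WT on HFD. RT13, RT15 and RT17 lay below every WT library on HFD, while RT11 and RT20 lay within the WT range. Fibroblast markers, 6 of 6 tested and none at 0, summed to 319.5, 567, 523, 611 and 305 FPKM in the same iKO libraries on HFD against 322 to 348 FPKM in WT on HFD, and to 362 to 699 FPKM in iKO on chow against 323 to 388 FPKM in WT on chow. Macrophage markers, 5 of 5 tested and none at 0, summed to 36.7, 53.7, 51.8, 56.8 and 41.5 FPKM in these iKO libraries on HFD against 35.9 to 45.7 FPKM in WT on HFD, and to 41.2 to 67.9 FPKM in iKO on chow against 41.9 to 47.6 FPKM in WT on chow. RT13, RT15 and RT17 were the highest on HFD in both sums, and the part of these cell types in the result was not tested.

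**Figure D5:**
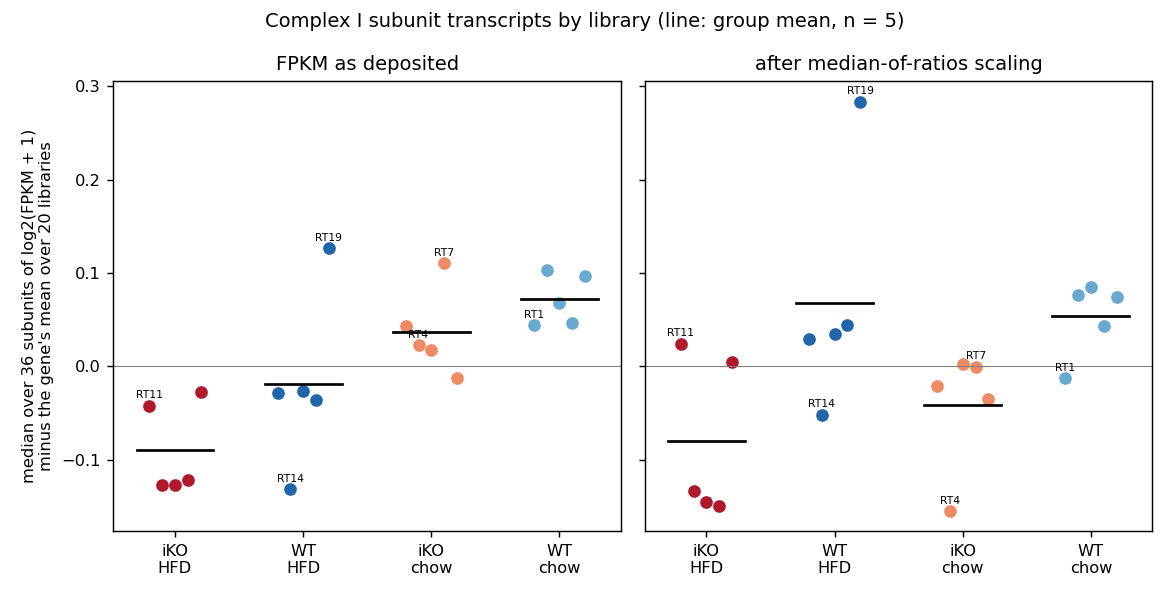
Median over the 36 subunits of each library's log2(FPKM + 1) less the gene's mean over 20 libraries, as deposited on the left and after median-of-ratios scaling on the right; lines are group means of 5. RT19 (WT on HFD) is the highest library in both panels, and RT4 (iKO on chow) is the lowest after scaling.

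As deposited, the median deviation of the subunits in a library from their means, as in the plot of subunit medians by library, was -0.13 to -0.027 in iKO on HFD, -0.13 to 0.13 in WT on HFD, -0.012 to 0.11 in iKO on chow and 0.045 to 0.10 in WT on chow. The summed level of the 36 subunits was 9326 ± 332 FPKM in iKO on HFD, 9814 ± 588 FPKM in WT on HFD, 10197 ± 337 FPKM in iKO on chow and 10386 ± 183 FPKM in WT on chow (SD, n = 5 each). RT19 had the highest sum on HFD, 10726 FPKM, above every WT chow library. Without RT19 the calls for the diet in WT numbered 9 in place of 2, all lower (background for lower calls 6.46%). They were Ndufa9, Ndufs3, Ndufa12, Ndufs7, Ndufs6, Ndufb9, Ndufa4, Ndufb7 and Ndufaf3. The median in WT was then -0.12, where all genes tested had -0.070.

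Of the 11 factors held to drive nuclear respiratory genes (Nrf1, Gabpa, Gabpb1, Esrra, Esrrb, Esrrg, Ppargc1a, Ppargc1b, Perm1, Tfam and Yy1) limma called none between diets or genotypes. The share of all genes called was 10% for the diet in iKO and 8.04% in WT. For genotype it was 1.06% on chow and 0.172% on HFD. At such shares a count of 0 among 11 does not set these factors apart from other genes. For the diet in WT 2 had an unadjusted p below 0.05, against 25.6% of all genes tested, and in the other 3 comparisons none had. The shares of all genes there were 25.7% for the diet in iKO and, for genotype, 13.5% on chow and 15.2% on HFD. The estrogen-related receptor Esrrg came nearest, for the diet in WT (-0.24, SE 0.074, limma adjusted p = 0.0521), with -0.088 in iKO. The coactivator Ppargc1a stood at 70.6, 74.3, 21.4, 21.1 and 30.7 FPKM in iKO on HFD and at 33.9, 31.3, 24.9, 24.2 and 19.4 FPKM in WT on HFD (log2 fold change 0.50, SE 0.30, limma adjusted p = 0.420). RT11 and RT13 alone lay above the WT range.

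The 250 bases before the start sites of the members were searched for motifs of 4 such factors in RefSeq's promoters (GRCm38.p6, 39 of 45 members and 27025 genes), on both strands. The other 6 members were not searched. The NRF1 motif, GCGCA and GCGC with any base between them, was in 7 of the 39 members (17.9%) and in 4.23% of all genes. The YY1 motif AANATGGC was in 6 (15.4%, against 4.49%), the GABP motif CCGGAAG in 4 (10.3%, against 7.83%) and the ERR motif AAGGTCA in 3 (7.69%, against 4.7%). Of the 10 members called lower on HFD in iKO that had a promoter there, 2 held the NRF1 motif, 2 the GABP motif, 1 the YY1 motif and none the ERR motif. A match describes letters in a window and is not a binding site. Printed here, with the motif in capitals, are the promoters of the 4 members that held a motif among the 10 calls with the smallest p in iKO. They are chr6:24527691-24527940, minus strand for Ndufa5, chr13:73328483-73328732, minus strand for Ndufs6, chr3:32736813-32737062, plus strand for Ndufb5 and chr8:83566508-83566757, plus strand for Ndufb7, each 5′ to 3′ along the gene, ending at the base before the start.
Ndufa5: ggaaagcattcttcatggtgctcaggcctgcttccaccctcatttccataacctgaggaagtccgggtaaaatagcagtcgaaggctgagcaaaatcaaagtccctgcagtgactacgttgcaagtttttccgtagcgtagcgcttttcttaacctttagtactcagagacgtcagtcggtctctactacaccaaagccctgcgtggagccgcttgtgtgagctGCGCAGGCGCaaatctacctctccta
Ndufs6: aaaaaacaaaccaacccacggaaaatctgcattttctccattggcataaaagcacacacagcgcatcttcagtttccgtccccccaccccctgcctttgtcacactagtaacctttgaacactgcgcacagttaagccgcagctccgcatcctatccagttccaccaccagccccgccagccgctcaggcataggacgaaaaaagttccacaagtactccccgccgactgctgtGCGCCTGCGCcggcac
Ndufb5: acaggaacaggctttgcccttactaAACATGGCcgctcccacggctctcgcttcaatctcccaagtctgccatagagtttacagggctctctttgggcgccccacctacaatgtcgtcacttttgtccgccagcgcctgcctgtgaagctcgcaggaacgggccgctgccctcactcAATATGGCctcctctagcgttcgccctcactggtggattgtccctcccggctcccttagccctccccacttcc
Ndufb7: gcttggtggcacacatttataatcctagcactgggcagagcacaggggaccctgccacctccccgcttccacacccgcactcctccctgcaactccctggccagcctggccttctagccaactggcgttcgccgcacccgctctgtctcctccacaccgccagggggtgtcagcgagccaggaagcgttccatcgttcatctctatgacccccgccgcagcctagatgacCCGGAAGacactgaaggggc
The NRF1 motif lies at bases -26 to -17 of Ndufa5 and, on the other strand, at -16 to -7 of Ndufs6, where -1 is the last base before the start. The GABP motif lies at -20 to -14 of Ndufb7, and the YY1 motif at -225 to -218 and -73 to -66 of Ndufb5. No motif overlapped another in these 4.

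Some members share sequence with neighbours. The kit does not mark strand as far as the labels say, and the exons of Ndufb6 overlap those of Smim27 on the opposite strand over 39% of their bases, those of Ndufa13 overlap Tssk6 over 30.0%, of Ndufb11 Rbm10 over 12.9%, of Ndufb5 Mrpl47 over 12.3% and of Ndufa2 Tmco6 over 11.5%. These partners averaged at most 9.51 FPKM, and Ndufb5 at least 239 FPKM. Of their 31-base words, Ndufaf2 shares 65.1% with B230220B15Rik and Ndufs3 21.2% with Gm12251, which were not analysed here. Ndufb6 shares 34.5% with Smim27, Ndufa13 28.3% with Tssk6, Ndufs5 26.5% with BC002163 and Ndufa12 20.2% with Gm15920, and these partners averaged between 0.0085 and 3.67 FPKM. The values of these members are uncertain to that extent.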

How the data were processed

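Poly(A) RNA of 20 mouse left ventricles (4 groups of 5) was measured, with groups taken from genotype and diet in the labels. The authors deposited FPKM per gene, 1 table per library; mm9, Bowtie2, RSEM and DESeq2 are listed in the submitters' processing notes, with no versions. Coordinates come from GENCODE M21 (GRCm38), which holds 24938 of the 25052 gene IDs and differs from the stated build. The test ran on log2(FPKM + 1), a scale that shrinks changes of low genes, over the 12775 genes that reached 0.5 FPKM in 5 or more libraries. Limma 3.58.1 in R 4.3.3 (intensity trend, robust variance) was fitted to 4 group means, with 5 comparisons each adjusted by Benjamini-Hochberg and called at 0.05, and tested on simulated data. Python 3.11.15 was used with pandas 2.3.3, numpy 2.4.6 and matplotlib 3.10.9.

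FPKM have no counts, so depth was estimated from steps of 1 read in short genes (153 to 202 per library, of which 51.3% to 70.5% were whole within 0.05 reads), and no count test was run. Alternatives were median-of-ratios and upper-quartile scaling, a pseudocount of 0.1, no filter on low values, a fit of the compared groups alone, quality weights and leaving out libraries. A total without mitochondrial sequence, and scaling without RT19, were added after seeing the data. Members, roles, lists and the naming rule were chosen with earlier results of these data known. Named were, per comparison, up to 10 called members by smallest p, or the smallest p where none was called, the highest and lowest member of each role in WT on chow, and Ndufs4, Ndufv1, Ndufs1, Ndufa4 and Ndufa4l2. One member is counted but not reported by name here.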

Additional observations from a re-analysis of the deposited data

Results flagged for a closer look

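In 104 groups of 5 values examined, 4 held a library whose gap to the others was large against the group's range. Chance gives about 1 in 20 groups. After median-of-ratios scaling the median deviation of the 36 subunits was 0.28 in RT19, where the other WT HFD libraries lay between -0.052 and 0.044. On the same scale RT4 had -0.15, where the other iKO chow libraries lay between -0.035 and 0.0025. Ndufv1 stood at 315.3 FPKM in RT14, where the other WT HFD libraries lay between 351 and 363 FPKM. Ndufaf1 stood at 27.9 FPKM in RT13, where the other iKO HFD libraries lay between 29.9 and 30.4 FPKM.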

How the results depend on the processing

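No paired analysis was possible because each library has its own number, so that the groups share none. No called value changed sign, but some medians and some members that did not pass did. For HFD against chow in iKO the count of members called, 12, became 0 under median-of-ratios scaling (also without RT19) and upper-quartile scaling, 1 (higher) with the total without mitochondrial sequence, 6 with no filter, 7 with the compared groups alone and 3 without RT4 and RT7, which had the lowest mitochondrial share. With 1 library left out it ranged from 6 (without RT7 or RT15) to 18 (without RT19). The WT count, 2, became 0 under both scalings (also without RT19), with the total without mitochondrial sequence, with no filter and without RT1 and RT4, the highest in atrial markers, and 15 with quality weights. With 1 library left out it ranged from 0 to 9. The share of all genes called is not given for upper-quartile scaling, no filter, the compared groups alone, quality weights or libraries left out other than RT19. Those counts therefore cannot be told from a change in calls over all genes. The iKO median of -0.11 became -0.027 under median-of-ratios scaling (also -0.027 without RT19), -0.043 under upper-quartile scaling and -0.012 with the total without mitochondrial sequence. The WT median of -0.083 changed sign to 0.022, 0.0024 and 0.013 under the same 3, and was -0.033 under median-of-ratios scaling without RT19. The interaction median of -0.037 changed sign to 0.0064 without RT19 and to 0.0056 under median-of-ratios scaling without RT19. For iKO against WT the median moved to -0.077 on chow under median-of-ratios scaling (-0.076 without RT19), and on HFD to -0.14, or -0.12 under upper-quartile scaling. With 1 library left out the medians ranged from -0.12 to -0.099 for the diet in iKO, -0.12 to -0.054 in WT, -0.032 to -0.010 for genotype on chow, -0.090 to -0.024 on HFD and -0.056 to 0.0064 for the interaction. Calls for genotype and interaction numbered 0 throughout. Of 38 results for named members 13 were calls. All 13 were lost under each rescaling and none under a pseudocount of 0.1. For the diet in iKO, Ndufs1 (-0.064) had 0.024 under median-of-ratios scaling (also 0.024 without RT19), 0.0071 under upper-quartile scaling and 0.039 with the total without mitochondrial sequence, and Ndufa4l2 (-0.078) had 0.0034, 0.0036 without RT19, and 0.018 with that total. For the diet in WT, Ndufs1 (-0.046) had 0.060, 0.066 without RT19, 0.039 and 0.050, Ndufs4 (-0.083) had 0.022, 0.0024 and 0.013, Ndufa4l2 (-0.049) had 0.049, 0.030 and 0.040, each under median-of-ratios scaling, upper-quartile scaling and that total, and Ndufa4 (-0.10) had 0.0043 under median-of-ratios scaling. On chow, iKO against WT, Ndufv1 (0.0085) had -0.051 (also -0.051 without RT19), -0.037 and -0.019 under the same 3, -0.0061 with quality weights, -0.0051 without RT1 and RT4 and -0.043 without RT4 and RT7, Ndufs4 (-0.021) had 0.0019 without RT1 and RT4, and Ndufa4l2 (0.074) had -0.0033 without RT4 and RT7. On HFD Ndufa4l2 (0.045) had -0.028 under median-of-ratios and -0.010 under upper-quartile scaling. For the interaction Ndufa4l2 (-0.029) had 0.035 with quality weights, 0.032 without RT1 and RT4, 0.048 without RT4 and RT7 and 0.019 under median-of-ratios scaling without RT19. With 1 library left out, ranges that crossed 0 were -0.035 to 0.037 for Ndufv1 and -0.026 to 0.0042 for Ndufa4 on chow, -0.0059 to 0.093 for Ndufa4l2 on HFD, -0.10 to 0.0015 for Ndufa4l2 for the diet in WT, and, for the interaction, -0.042 to 0.0016 for Ndufs1 and -0.11 to 0.026 for Ndufa4l2. The cause was not tested. FPKM carry no count error, so depth sets no interval here.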
